A study of Mus musculus with 25 samples.

Results

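Macrophages that carried low Ly6C 4 days after a muscle injury were compared with macrophages that carried high Ly6C 2 days after it. They are called the late and early ends here. The series also holds Ly6Chigh macrophages of day 1, which were not used, so the early end is not its earliest macrophage group. The 5 samples of these ends (2 of Ly6Clow cells at day 4 and 3 of Ly6Chigh cells at day 2) are among 25 samples in all, and were chosen by their labels. A gene was followed where the higher of the 2 groups reached 50 normalised counts, which held for 11628 of 38087 genes. The ends differ in both sorted subset and day, so each difference was also split into a subset step at day 2 (Ly6Clow over Ly6Chigh cells) and a day step (Ly6Clow cells at day 4 over day 2).

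The study asks how lipid mediators and macrophage subtypes shift while skeletal muscle regenerates. Every muscle group used here came from adult male C57BL/6J mice of 2 to 4 months, whose tibialis anterior, a muscle of the shin, was injected with cardiotoxin (CTX), a toxin of cobra venom that destroys myofibres. Leukocytes were enriched on magnetic beads against CD45 and then sorted as Ly6Clow F4/80high or Ly6Chigh F4/80low macrophages, and RNA was sequenced from each sort. The late end was Ly6Clow at day 4 (2 samples), the intermediate groups were Ly6Clow at day 2 (3 samples) and Ly6Chigh at day 4 (2 samples), and the early end was Ly6Chigh at day 2 (3 samples). The 2 subsets are gates on surface antigens, not lineages followed in time, and the labels do not say whether a sample pooled several animals.

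After such an injury, monocytes that express Ly6C enter the muscle from blood, clear debris and release inflammatory signals. Macrophages with low Ly6C and high F4/80 then prevail, and these are known for taking up dying cells, for releasing growth factors such as IGF-1 and for supporting the fusion of muscle precursors. Lipid mediators made from fatty acids, among them prostaglandins, leukotrienes and resolvins, recruit leukocytes or end their recruitment.

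The deposited table holds 1 value per gene and group, the authors' mean on a log2 scale, so there is no spread between samples to set a difference against and no test was made. A gene is called higher or lower here when the ratio of (normalised count + 10) was at least 2-fold, and all ratios below are on that scale, which understates differences of weakly expressed genes. A gene that reached 50 normalised counts at 1 end alone, as 967 did in Ly6Clow cells at day 4 and 343 in Ly6Chigh cells at day 2, was measured because it was high there. Just inside the limit of 50 lay Zfp606, at 50.02 normalised counts in the higher group, and just outside it Arsi, at 49.93. Just inside the 2-fold limit lay Tmem48, at 186.4 in Ly6Clow cells at day 4 and 88.2 in Ly6Chigh cells at day 2, and just outside it Scly, at 549.0 and 269.9 in those groups. The summed normalised counts were 12.76 M in Ly6Clow cells at day 4, 12.62 M in Ly6Clow cells at day 2, 11.86 M in Ly6Chigh cells at day 4 and 12.53 M in Ly6Chigh cells at day 2. In whole cell populations such as these, fewer cells of a type and less RNA per cell cannot be told apart.

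The sort antigens followed the labels. Ly6c2, which encodes the Ly6C protein of monocytes, had 93.5 normalised counts in Ly6Clow cells at day 4 and 139 in Ly6Clow cells at day 2, against 11758 in Ly6Chigh cells at day 4 and 3717 in Ly6Chigh cells at day 2. Its neighbour Ly6c1, a close paralog with which reads may be shared, had 43.1 and 41.7 in the Ly6Clow groups of day 4 and day 2, against 3258 and 985 in the Ly6Chigh groups of day 4 and day 2. Emr1, which encodes F4/80, had 19571 normalised counts in Ly6Clow cells at day 4, 14287 in Ly6Clow cells at day 2, 14270.0 in Ly6Chigh cells at day 4 and 8642 in Ly6Chigh cells at day 2. Ly6g, the antigen used to set neutrophils apart, was listed at 0 in all 4 macrophage groups and had 147 in the sorted neutrophils of day 1.

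Between the 2 ends, 2234 of the 11628 genes (19.2%) were called. Ly6Clow cells at day 4 had the higher level for 1460 (12.6%) and the lower level for 774 (6.66%). Counts of called list members given below are to be read beside these shares. At least 4-fold differences were seen for 412 higher and 128 lower genes, and at least 16-fold differences for 25 higher and 13 lower genes. The median ratio over all 11628 genes was -0.03 on the log2 scale. Of 31 gene lists, 4 had a median of 1 or more (mitosis genes, complement genes, MHC class II genes and receptors of resident macrophages), and 3 had one of -1 or less (monocyte genes, provisional matrix genes and glycolysis genes). In 12 lists the median lay between -0.5 and 0.5.

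The gene with the largest difference on the higher side was H19, an imprinted long non-coding RNA on chromosome 7 (142575529 to 142578143, minus strand, GENCODE annotation of GRCm38). It had 1450.1 normalised counts in Ly6Clow cells at day 4 and 4.89 in Ly6Clow cells at day 2, with 1388 in Ly6Chigh cells at day 4 and 7.97 in Ly6Chigh cells at day 2. H19 thus stood high in both groups of day 4 and near 0 in both groups of day 2. Dnase1l3, a secreted DNase that degrades DNA from dying cells, had 611 and 4.18 in Ly6Clow cells at day 4 and day 2, 246 in Ly6Chigh cells at day 4 and 4.30 in Ly6Chigh cells at day 2, and was 43.5-fold higher. Cd4, a T cell co-receptor that some macrophages also express, had 1223 normalised counts in Ly6Clow cells at day 4, 23.6 in Ly6Clow cells at day 2, 917 in Ly6Chigh cells at day 4 and 29.4 in Ly6Chigh cells at day 2. Lag3, a CD4-related receptor that binds MHC class II, showed the same arrangement, with 658 and 532 in the Ly6Clow and Ly6Chigh groups of day 4, against 7.99 and 17.7 in those groups at day 2.

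For Ephx1 and Ccl8, Ly6Clow cells at day 4 stood well above both intermediate groups. Ephx1, an epoxide hydrolase, had 698 normalised counts there, 45.8 in Ly6Clow cells at day 2, 154 in Ly6Chigh cells at day 4 and 11.7 in Ly6Chigh cells at day 2, a 32.6-fold difference between the ends. Ccl8, a chemokine, had 1782 in Ly6Clow cells at day 4 and 69.4 in Ly6Chigh cells at day 2. Both intermediate groups lay between these ends for Ccl8, at 383 in Ly6Clow cells at day 2 and 418 in Ly6Chigh cells at day 4. Il18bp, a secreted inhibitor of interleukin-18, was 22.6-fold higher between the ends, at 2349 in Ly6Clow cells at day 4 and 94.6 in Ly6Chigh cells at day 2, though it overlaps Numa1 on the other strand and the libraries carry no strand. Sorbs3, an adaptor at cell adhesions (25.3-fold), Gpr155 (23.5-fold), Tlr12, a Toll-like receptor (28.1-fold), and the protease inhibitor Serpine2 (21.7-fold) completed the 12 largest with Slc40a1, which is described with the iron genes.

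On the lower side the largest difference was that of Vcan (chromosome 13, 89655312 to 89742509, minus strand), which encodes versican, a large proteoglycan made by monocytes. Vcan had 60.4 normalised counts in Ly6Clow cells at day 4 and 126 in Ly6Clow cells at day 2, with 787 in Ly6Chigh cells at day 4 and 9089.9 in Ly6Chigh cells at day 2, and was 129-fold lower between the ends. The 4 groups stood in that order, with each Ly6Clow group below both Ly6Chigh groups. Haptoglobin (Hp) was 51.0-fold lower, at 23.6 in Ly6Clow cells at day 4 and 1700.4 in Ly6Chigh cells at day 2, and Cd177 was 37.9-fold lower, at 43.5 and 2018 in the same 2 groups. F10, which encodes coagulation factor X, had 171 in Ly6Clow cells at day 4 and 4309 in Ly6Chigh cells at day 2. Serpinb10 was listed at 0 in both Ly6Clow groups and had 38.6 and 186 normalised counts in the Ly6Chigh groups of day 4 and day 2. Dmkn (40.9-fold), Slpi, an inhibitor of neutrophil elastase (17.5-fold), and Clec4e, a receptor for microbial glycolipids (436 in Ly6Clow cells at day 4 and 7126 in Ly6Chigh cells at day 2), were also among the 12 lowest. Some of these genes are also expressed by neutrophils, and the sorted neutrophils of day 1 had 12833 normalised counts of Hp, 14706 of Slpi, 13472 of F10 and 103451 of Clec4e. Neutrophil markers are given at the end, and their part in these differences was not tested.

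**Figure D1:**
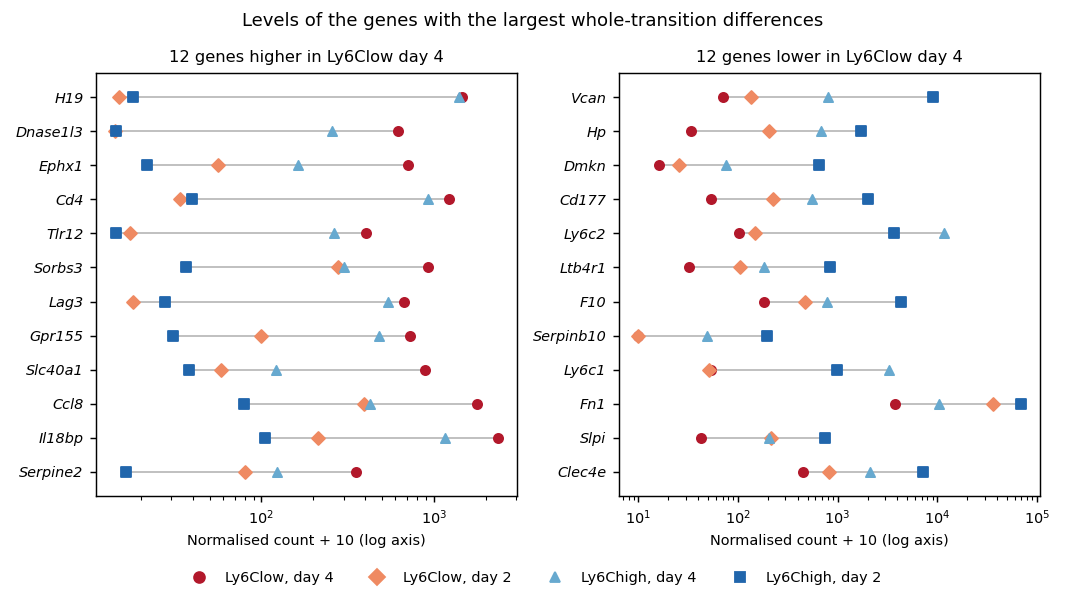
Normalised counts plus 10 (log axis) of the 12 genes with the largest higher (left) and lower (right) ratios of Ly6Clow day 4 over Ly6Chigh day 2, 1 authors' group mean per point, with no error available. On the left, H19, Dnase1l3, Cd4, Tlr12 and Lag3 are high in both day 4 groups and low in both day 2 groups, while on the right Ly6c1 and Ly6c2 are lower in both Ly6Clow groups than in both Ly6Chigh groups.

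The split showed how much of each difference was already present between the subsets at day 2. The 2 steps share the Ly6Clow day 2 group and for each gene add up to the whole, so an error in that group would move them in opposite directions. In all, 1281 of 11275 genes (11.4%) passed 2-fold in the subset step, 665 higher (5.9%) and 616 lower (5.46%), and 1309 of 11560 genes (11.3%) passed it in the day step, 934 higher (8.08%) and 375 lower (3.24%). Among the 1460 higher genes, the median subset step was 0.77 and the median day step 0.80 on the log2 scale, and 414 genes passed 2-fold between the ends while neither step did so alone. Among the 774 lower genes, the medians were -0.70 and -0.73, and 300 genes passed 2-fold only over both steps.

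By the share of the difference that lay in the subset step, both steps contributed (25 to 75%) for 624 higher and 314 lower genes. The subset step alone held at least 75% for 255 higher and 125 lower genes, and for a further 144 higher and 121 lower genes it exceeded the whole difference, with the day step going partly back. The day step held at least 75% for 188 higher and 145 lower genes, and for a further 249 higher and 69 lower genes the subset step went the opposite way. In 44 of these 249 higher genes the opposite subset step was itself 2-fold or more, against 1 of the 69 lower genes, which was Arg1. This split depends on the route, because through Ly6Chigh cells at day 4 the subset step alone held at least 75% for 84 higher and 61 lower genes, and exceeded the whole for 24 and 59 more.

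Genes whose difference lay mostly in the subset step at day 2 included scavenging and growth factor genes. Igf1 (chromosome 10, 87858265 to 87937042, plus strand), the growth factor that promotes muscle precursor growth, had 2892 normalised counts in Ly6Clow cells at day 4 and 1785 in Ly6Clow cells at day 2, with 859.8 in Ly6Chigh cells at day 4 and 177 in Ly6Chigh cells at day 2. Its subset step was 3.27 and its day step 0.69 on the log2 scale. By the other route, through Ly6Chigh cells at day 4, its day step was 2.22 and its subset step 1.74. Adcy3, Npl, Mfge8, Atp6v0d2 and Cd5l had subset steps between 3.19 and 3.40 and day steps between 0.55 and 1.04. Lyve1, a hyaluronan receptor of resident macrophages, had 115 and 122 normalised counts in Ly6Clow cells at day 4 and day 2, against 3.21 and 5.61 in Ly6Chigh cells at day 4 and day 2, so the 2 Ly6Clow groups were close to each other and both Ly6Chigh groups were near 0.

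Several genes whose higher level lay in the day step were high in both subsets at day 4. Beside H19, Cd4 and Lag3, these included Pltp, a phospholipid transfer protein that overlaps Ctsa on the other strand, at 24918 and 2541 normalised counts in Ly6Clow cells at day 4 and day 2, 13027 in Ly6Chigh cells at day 4 and 1470.3 in Ly6Chigh cells at day 2. The day step also held transcripts of muscle and connective tissue. Desmin (Des), an intermediate filament of muscle, had 206 in Ly6Clow cells at day 4, 4.41 in Ly6Clow cells at day 2, 123 in Ly6Chigh cells at day 4 and 1.06 in Ly6Chigh cells at day 2. Postn, which encodes the matrix protein periostin, had 223 in Ly6Clow cells at day 4, 2.63 in Ly6Clow cells at day 2, 2444 in Ly6Chigh cells at day 4 and 4.62 in Ly6Chigh cells at day 2.

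On the lower side, fibronectin (Fn1) lay mostly in the day step, with 3736 normalised counts in Ly6Clow cells at day 4, 36449 in Ly6Clow cells at day 2, 10371 in Ly6Chigh cells at day 4 and 69485 in Ly6Chigh cells at day 2. Both day 2 groups were above both day 4 groups. Arg1, the arginase that serves as a marker of alternative activation in mice, was higher in the subset step and lower in the day step, at 299 in Ly6Clow cells at day 4, 5246 in Ly6Clow cells at day 2, 125 in Ly6Chigh cells at day 4 and 2471 in Ly6Chigh cells at day 2. Plac8, a monocyte gene, took the opposite course, with 502, 87.8, 7982 and 5865 in the same 4 groups and order.

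**Figure D2:**
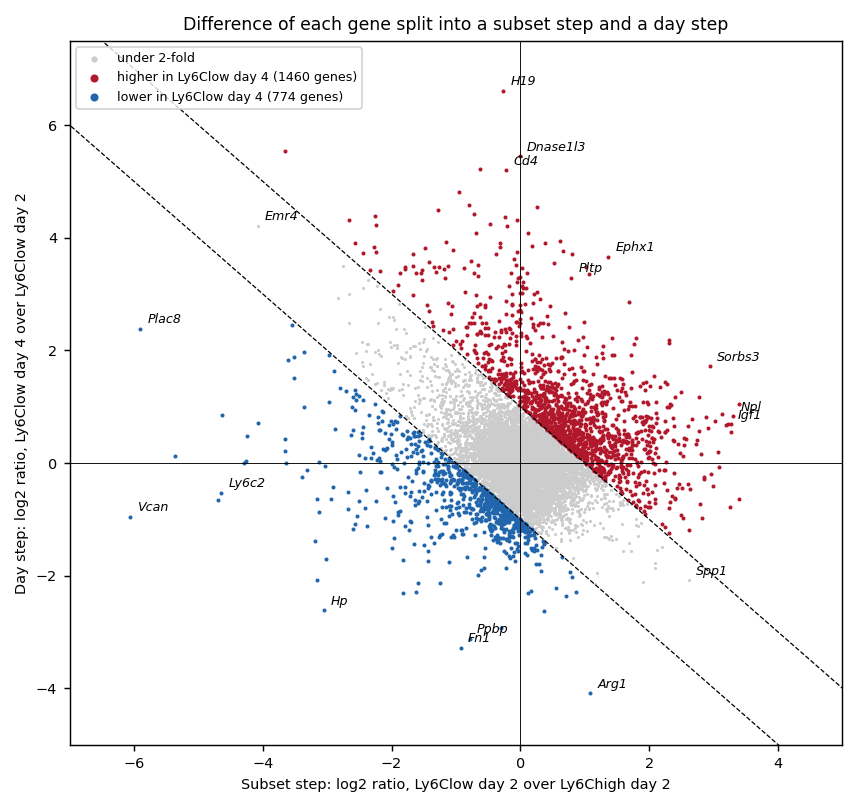
Each point is 1 of the genes with 50 or more normalised counts at either end, with the subset step on the x axis and the day step on the y axis (log2 ratios). The dashed lines mark a whole difference of 2-fold, beyond which 1460 genes (red) are higher and 774 (blue) lower in Ly6Clow cells at day 4. H19, Dnase1l3 and Cd4 lie close to the day axis and Vcan near the subset axis, and Spp1 and Emr4 lie between the lines with opposed steps.

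A further set of genes left the level of the early end at the Ly6Clow day 2 group and was back within 2-fold of that level at day 4. Among 11735 genes with 50 or more normalised counts in at least 1 of the 3 groups, 37 (0.315%) were at least 2-fold higher in Ly6Clow cells at day 2 than in both ends, and 174 (1.48%) were at least 2-fold lower there, with the ends within 2-fold of each other in each case. Spp1, which encodes osteopontin, had 43292 normalised counts in Ly6Clow cells at day 4, 183020.3 in Ly6Clow cells at day 2, 17332 in Ly6Chigh cells at day 4 and 29849 in Ly6Chigh cells at day 2. The fatty acid transporter Cd36 had 5183, 18829.8, 2237 and 4434 in the same order, and F7, which encodes coagulation factor VII, had 477, 2089.7, 283 and 554. In these genes the Ly6Clow group of day 2 stood above all other groups.

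Among these 174 genes, Emr4, an adhesion receptor related to F4/80, had 331 normalised counts in Ly6Clow cells at day 4, 8.37 in Ly6Clow cells at day 2, 807 in Ly6Chigh cells at day 4 and 301 in Ly6Chigh cells at day 2. Itgal, the alpha chain of the integrin LFA-1, had 2757, 351, 3116 and 2555 in the same order, and Clec4n, a receptor for fungal sugars also called dectin-2, had 2453, 298, 1409 and 1943. A comparison of the ends alone does not show these genes.

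Ly6c1 and Ly6c2 stand in the list of monocyte genes, and their difference is that of the sort. Of the list's 18 members, 14 were lower and none higher in the late cells. The median was -3.78 for the whole difference and -3.11 for the subset step. Of the 18, 6 were under 50 normalised counts in Ly6Clow cells at day 4 and were measured for their level in Ly6Chigh cells at day 2. The list was also chosen with earlier results of these data known. Its count and median are thus no measure of how general the difference was. Vcan, Hp, Dmkn and Cd177, described above, were among the lower members.

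Of 14 measured receptors typical of resident macrophages, 9 were higher and 1 lower, with a median of 1.19 (2.52 without genes of other lists). Emr1 is 1 of the 9 and encodes the F4/80 antigen of the sort, so its subset step is not independent of the gate. That step was 0.72 on the log2 scale, and the day step of Emr1 within Ly6Clow cells was 0.45. Cd5l, a secreted scavenger protein, was 14.2-fold higher, at 1412 normalised counts in Ly6Clow cells at day 4 and 90.3 in Ly6Chigh cells at day 2. Folr2, a folate receptor, was 9.49-fold higher, at 4819.8 and 499 in those groups. Mertk, a receptor for apoptotic cells, was 4.38-fold higher, at 3828 and 867. The lower member was Msr1, a scavenger receptor for modified lipoproteins, at 2096 in Ly6Clow cells at day 4 and 6600.0 in Ly6Chigh cells at day 2.

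The genes for uptake of apoptotic cells were higher in 8 of 18 measured members and lower in 1. Mfge8, a bridge between dying cells and integrins, had 2036 normalised counts in Ly6Clow cells at day 4 and 1259 at day 2, with 285 in Ly6Chigh cells at day 4 and 126 at day 2. Gas6, the ligand of MERTK and AXL, had 5772 and 4289 in Ly6Clow cells at day 4 and day 2, with 1331 and 716 in Ly6Chigh cells at day 4 and day 2. Both ligands stood high in both Ly6Clow groups. Stab2, a scavenger receptor, was 9.32-fold higher. Thbs1, which encodes the secreted glycoprotein thrombospondin-1, was the lower member, at 29776 in Ly6Clow cells at day 4 and 253762 in Ly6Chigh cells at day 2.

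Of 14 complement genes, 7 were higher and 4 lower (median 1.22, between 0.79 and 1.65 under other settings). The median was -0.57 for the subset step, in which 3 genes were higher and 4 lower. It was 1.18 for the day step, in which 8 were higher and 1 lower. The complement genes named here are all among the higher members. The chains of C1q, the recognition molecule of the classical pathway, were higher in both steps, and C1qa had 37439 and 13310.1 normalised counts in Ly6Clow cells at day 4 and day 2, 19264 in Ly6Chigh cells at day 4 and 4476 in Ly6Chigh cells at day 2. C1qc (7.51-fold) and C1qb (4.96-fold) were higher likewise. C4b took another course, with 1175 in Ly6Clow cells at day 4, 94.5 in Ly6Clow cells at day 2, 1301 in Ly6Chigh cells at day 4 and 217 in Ly6Chigh cells at day 2.

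Lysosome genes were higher in 10 of 31 members and lower in none (median 0.60). Atp6v0d2, a subunit of the proton pump, had 1328 normalised counts in Ly6Clow cells at day 4 and 82.4 in Ly6Chigh cells at day 2. The lysosomal hydrolases Acp5 (4.34-fold) and Glb1 (log2 ratio 1.85) were higher too. Genes of lipid efflux and uptake were higher in 10 of 24 members and lower in none (median 0.68, or 0.40 without genes of other lists), among them Apoe at 454978 in Ly6Clow cells at day 4 and 63167 in Ly6Chigh cells at day 2, the cholesterol exporter Abcg1 (3.87-fold) and the ubiquitin ligase Mylip (3.58-fold).

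Cholesterol synthesis genes were lower in 9 of 25 members and higher in 3, with a median of -0.84 (-0.47 with no floor on the level). Sqle, squalene epoxidase, was 4.31-fold lower, at 77.3 normalised counts in Ly6Clow cells at day 4 and 366 in Ly6Chigh cells at day 2. Fads1, a fatty acid desaturase, was 4.80-fold higher, at 1187 in Ly6Clow cells at day 4 and 239 in Ly6Chigh cells at day 2.

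Iron and heme genes were higher in 6 of 18 members and lower in none. Slc40a1 encodes ferroportin, the exporter of iron from cells, and had 879.6 normalised counts in Ly6Clow cells at day 4, 47.9 in Ly6Clow cells at day 2, 111 in Ly6Chigh cells at day 4 and 27.9 in Ly6Chigh cells at day 2. Spic, a transcription factor of iron-recycling macrophages, had 261, 16.1, 174 and 66.0 in the same 4 groups, and was lowest in Ly6Clow cells at day 2. Cp, the ferroxidase ceruloplasmin, which overlaps Hps3 on the other strand, was 12.9-fold and Hfe 3.94-fold higher between the ends.

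Growth factor genes split in both directions, with 9 of 19 members higher and 5 lower (median 0.65, or 1.34 with a floor of 200). Beside Igf1, Pdgfc had 409 and 176 normalised counts in Ly6Clow cells at day 4 and day 2 and 53.2 and 17.2 in Ly6Chigh cells at day 4 and day 2. Pdgfb was higher by 3.17 on the log2 scale, and its level was high in both groups of day 4, at 547 in Ly6Clow and 603 in Ly6Chigh cells, against 94.4 and 51.9 in those groups at day 2. Gdf15 (3.56-fold), Vegfb (3.31-fold), Gpnmb (3.12-fold), Pdgfa (3.10-fold), Bmp2 (4.58-fold) and Hbegf (2.53-fold) were the other higher members.

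The lower growth factor genes were Vegfa, Tgfbi, Nrg1, Inhba and Areg. Vegfa, which encodes the main angiogenic factor, had 1975 normalised counts in Ly6Clow cells at day 4 and 5901 in Ly6Chigh cells at day 2, opposite in direction to Vegfb. Areg, which encodes amphiregulin, a ligand of the EGF receptor, had 38.8 and 229 in those groups, and Tgfbi had 17956 and 73406. Tgfb1 was not called, at 5697 in Ly6Clow cells at day 4 and 5048 in Ly6Chigh cells at day 2.

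Of 9 measured CXC chemokines, 4 were higher and 3 lower. Those higher included the interferon-induced ligands of CXCR3, Cxcl9 and Cxcl10. Cxcl9 had 270.3 normalised counts in Ly6Clow cells at day 4, 3.14 in Ly6Clow cells at day 2, 472 in Ly6Chigh cells at day 4 and 11.8 in Ly6Chigh cells at day 2, and Cxcl10 had 1153, 71.1, 1350.0 and 382. Both were lowest in Ly6Clow cells at day 2 and high in both groups of day 4. Cxcl16, a ligand of CXCR6, was 6.59-fold and Cxcl14 2.89-fold higher.

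The lower members were ligands of CXCR2, which attract neutrophils. Ppbp had 19.4 normalised counts in Ly6Clow cells at day 4, 246 in Ly6Clow cells at day 2, 15.1 in Ly6Chigh cells at day 4 and 431 in Ly6Chigh cells at day 2. Cxcl3 was 4.13-fold lower, at 117 and 513 at the 2 ends, and Cxcl2 was 2.88-fold lower, at 1777 and 5135. Cxcl1, of the same receptor group, was at 170.1 in Ly6Clow cells at day 4 and 313 in Ly6Chigh cells at day 2, which missed 2-fold, and Pf4 was highest in Ly6Clow cells at day 2, at 11871, with 4848 in Ly6Clow cells at day 4 and 3353 in Ly6Chigh cells at day 2.

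CC chemokines and receptors were lower in 6 of 14 members and higher in 3. Ccl6 was 8.02-fold lower, at 3369 normalised counts in Ly6Clow cells at day 4 and 27076 in Ly6Chigh cells at day 2, and the receptor Ccr1 was 7.70-fold lower, at 648 and 5053. Ccl5, a T cell attractant, was higher at 189 in Ly6Clow cells at day 4, 6.49 in Ly6Clow cells at day 2, 618 in Ly6Chigh cells at day 4 and 18.1 in Ly6Chigh cells at day 2. Of 10 interleukin-1 family genes, 2 were higher and 4 lower, among them Il1b, at 3285 in Ly6Clow cells at day 4, 886 in Ly6Clow cells at day 2, 11472 in Ly6Chigh cells at day 4 and 10235 in Ly6Chigh cells at day 2, and the decoy receptor Il1r2 (4.98-fold lower). Of 9 other cytokine genes, oncostatin M (Osm) and Tnfsf14 were lower and Ebi3 higher.

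Lipid mediator genes are the subject of the study's title. Of 10 measured prostaglandin and thromboxane genes, 4 were higher and 1 lower. The 2 cyclooxygenases, which make the common precursor of the prostaglandins, differed in opposite directions. Ptgs1 had 428 normalised counts in Ly6Clow cells at day 4, 82.8 in Ly6Clow cells at day 2, 146 in Ly6Chigh cells at day 4 and 37.3 in Ly6Chigh cells at day 2. Ptgs2, the inducible form, had 1531, 1918, 2415 and 6176 in the same 4 groups, so Ptgs1 was 9.26-fold higher and Ptgs2 4.01-fold lower between the ends.

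Hpgd, the dehydrogenase that inactivates prostaglandins and also oxidises resolvins, had 937 normalised counts in Ly6Clow cells at day 4 and 53.0 in Ly6Clow cells at day 2, with 604 in Ly6Chigh cells at day 4 and 68.9 in Ly6Chigh cells at day 2. It was low in both groups of day 2. Hpgds, the hematopoietic prostaglandin D synthase, had 1963, 1164, 1142 and 376 in the same order, and Cbr1, a carbonyl reductase, was 2.16-fold higher. Tbxas1 (log2 ratio 0.71), Akr1b3 (0.52), Ptgr1 (0.27), Ptges2 (-0.34) and Ptges3 (-0.98) were not called.

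Of 6 measured lipoxygenase and leukotriene genes, 2 were higher and none lower. Both higher genes were under 50 normalised counts in Ly6Chigh cells at day 2 and were measured for their level in Ly6Clow cells at day 4. Their count is thus no measure of how general the difference was. Ltc4s, which makes the cysteinyl leukotriene LTC4, had 155 and 67.6 normalised counts in Ly6Clow cells at day 4 and day 2, 57.3 in Ly6Chigh cells at day 4 and 9.92 in Ly6Chigh cells at day 2. Ggt5, which trims LTC4 to LTD4, had 235, 14.5, 159 and 28.9 in the same order. Alox5, the enzyme that starts leukotriene synthesis, was at 149.6 in Ly6Clow cells at day 4 and 120.3 in Ly6Chigh cells at day 2, while its partner Alox5ap was at 4583 and 8986, just under 2-fold lower. Lta4h, at 821 and 991, and Dpep2, at 1609 and 1610.2, were not called. Alox15, Alox12 and the other members of this list stayed under 50 normalised counts at both ends.

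Of 10 measured receptors of lipid mediators, 4 were lower and none higher. Ltb4r1, the high-affinity receptor for the neutrophil attractant LTB4, had 22 normalised counts in Ly6Clow cells at day 4, 93.7 in Ly6Clow cells at day 2, 171 in Ly6Chigh cells at day 4 and 828 in Ly6Chigh cells at day 2, and was 26.2-fold lower between the ends. Fpr2, a receptor for formyl peptides and lipoxin A4, was 3.05-fold lower, and Gpr132 (2.42-fold) and the prostacyclin receptor Ptgir (2.36-fold) were lower too. Cmklr1 (0.40), Ptger1 (0.38), Ptger4 (0.15), Cysltr1 (-0.36), Ptafr (-0.43) and Ptger2 (-0.70) had log2 ratios within 2-fold. Among 15 genes of arachidonate release and platelet-activating factor, 3 were higher and 1 lower, beside 12.6% higher and 6.66% lower of all measured genes. Lpcat2, a lysophospholipid acyltransferase that makes platelet-activating factor, led these 15. It had 3539 and 503 normalised counts in Ly6Clow cells at day 4 and day 2. In Ly6Chigh cells it had 2535 at day 4 and 808 at day 2.

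**Figure D3:**
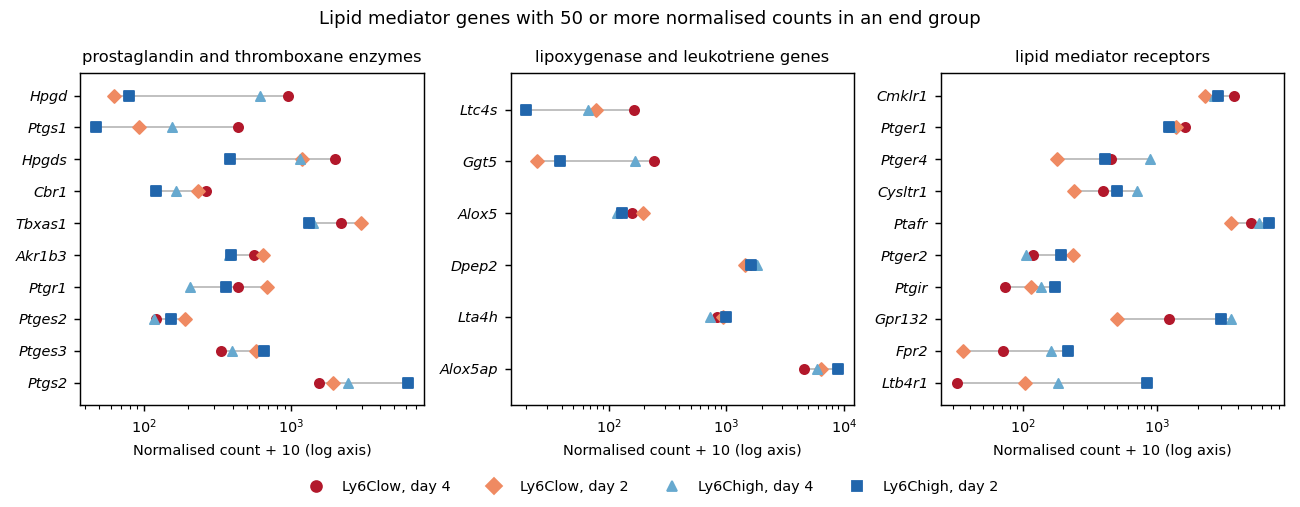
Normalised counts plus 10 (log axis) of the lipid mediator genes that reach 50 normalised counts at an end, 1 authors' group mean per point. Hpgd, Ptgs1, Hpgds, Cbr1, Ltc4s and Ggt5 are higher, and Ptgs2 and 4 receptors, with Ltb4r1 the lowest, are lower in Ly6Clow cells at day 4 than in Ly6Chigh cells at day 2.

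Glycolysis and hypoxia genes were lower in 13 of 26 members and higher in none, with a median of -1.02, a median subset step of -0.41 and a median day step of -0.52. Slc16a3, the lactate exporter MCT4, had 694 normalised counts in Ly6Clow cells at day 4, 1349 in Ly6Clow cells at day 2, 2625 in Ly6Chigh cells at day 4 and 7886 in Ly6Chigh cells at day 2. Slc2a1, the glucose transporter GLUT1, had 862, 1684, 1472 and 4623 in the same order. Egln3, an oxygen-sensing hydroxylase that hypoxia itself induces, was 7.29-fold lower, and Ankrd37, which overlaps Ufsp2 on the other strand, was 9.24-fold lower.

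By contrast, 1 of 30 oxidative phosphorylation genes was called, Cycs, which encodes cytochrome c, at 154 normalised counts in Ly6Clow cells at day 4 and 393 in Ly6Chigh cells at day 2. The median of that list was -0.25. Hif1a, the oxygen-regulated transcription factor subunit, was 3.35-fold lower, at 1231 in Ly6Clow cells at day 4 and 4148 in Ly6Chigh cells at day 2.

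Promoters are shown for the 2 lower glycolysis and hypoxia genes with the largest differences among those that hold ACGTG, the core of the site that HIF factors bind. They run from 250 bases before to 50 bases after the start site in RefSeq (GRCm38.p6), 5′ to 3′ on the gene's strand, with each ACGTG or its reverse complement CACGT in capitals. The Slc16a3 window is chr11:120948817-120949116 on the plus strand, and the Ankrd37 window is chr8:45999801-46000100 on the minus strand.
Slc16a3: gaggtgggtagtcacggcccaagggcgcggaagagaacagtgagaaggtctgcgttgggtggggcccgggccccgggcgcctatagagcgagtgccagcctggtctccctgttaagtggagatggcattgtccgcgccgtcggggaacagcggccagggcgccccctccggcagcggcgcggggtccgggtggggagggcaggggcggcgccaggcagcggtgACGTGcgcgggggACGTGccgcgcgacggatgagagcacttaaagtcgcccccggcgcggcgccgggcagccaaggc
Ankrd37: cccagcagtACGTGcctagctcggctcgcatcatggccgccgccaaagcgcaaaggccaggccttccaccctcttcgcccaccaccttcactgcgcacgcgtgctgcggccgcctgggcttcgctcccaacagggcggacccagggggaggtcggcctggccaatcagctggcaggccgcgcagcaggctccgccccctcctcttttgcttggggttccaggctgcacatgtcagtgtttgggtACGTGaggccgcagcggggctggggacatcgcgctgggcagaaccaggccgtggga
Of 29 listed glycolysis and hypoxia genes found in the promoter table, 20 (69.0%) hold ACGTG on either strand, against 21.8% of all 27025 genes there. A match of these letters is a description of the window and says nothing of whether a factor binds it.

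Mitosis genes were higher in 27 of 29 measured members and lower in none, with a median log2 ratio of 2.77, or 1.64 with a pseudocount of 50. The subset step had a median of 2.10 and the day step one of 0.73. Of the 29, 24 were under 50 normalised counts in Ly6Chigh cells at day 2 and were measured for their level in Ly6Clow cells at day 4, so their count is no measure of how general the difference was. Birc5, which encodes survivin, had 155 normalised counts in Ly6Clow cells at day 4, 88.4 in Ly6Clow cells at day 2, 55.9 in Ly6Chigh cells at day 4 and 2.12 in Ly6Chigh cells at day 2. Ccnb2, a mitotic cyclin, had 221, 69.4, 90.0 and 8.92 in the same order. Ube2c, whose locus overlaps the muscle troponin gene Tnnc2 on the other strand (12.8-fold), and Cdca3 (10.8-fold) were higher likewise.

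DNA replication genes took another course. Of 28 measured members, 14 were higher and none lower between the ends (median 1.00). Of the 28, 11 were under 50 normalised counts in Ly6Chigh cells at day 2 and were measured for their level in Ly6Clow cells at day 4. The count of higher members is thus no measure of how general the difference was. In the subset step 26 of 30 passed 2-fold upward, and in the day step 6 of 30 passed it downward. These 30 reached 50 normalised counts in at least 1 group of the step. Over the 28 members measured at the ends, the median was 1.67 for the subset step and -0.64 for the day step. Mcm7, a subunit of the replicative helicase, had 224 normalised counts in Ly6Clow cells at day 4, 369 in Ly6Clow cells at day 2, 212 in Ly6Chigh cells at day 4 and 65.8 in Ly6Chigh cells at day 2. Lig1, the ligase that joins Okazaki fragments, had 351, 590.4, 231 and 77.1 in the same order, and both genes overlap others on the opposite strand. Both were highest in Ly6Clow cells at day 2, whereas Birc5 and Ccnb2 were highest in Ly6Clow cells at day 4. Rrm2 (6.06-fold) and Mcm10 (4.61-fold) were the members with the largest whole difference.

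Promoters are also shown for 2 mitosis genes, those with the largest differences among the called members that hold TTTGAA. These are the letters of the cell cycle homology region of mitotic genes, in capitals here or as the reverse complement TTCAAA. The windows are again those of RefSeq (GRCm38.p6), chr2:164769679-164769978 on the plus strand for Ube2c and chr9:70421505-70421804 on the minus strand for Ccnb2.
Ube2c: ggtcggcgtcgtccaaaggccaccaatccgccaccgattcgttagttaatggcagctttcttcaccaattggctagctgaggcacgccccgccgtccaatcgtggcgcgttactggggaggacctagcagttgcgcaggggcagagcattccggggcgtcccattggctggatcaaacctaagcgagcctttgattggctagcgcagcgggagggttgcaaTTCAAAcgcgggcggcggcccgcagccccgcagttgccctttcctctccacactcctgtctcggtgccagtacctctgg
Ccnb2: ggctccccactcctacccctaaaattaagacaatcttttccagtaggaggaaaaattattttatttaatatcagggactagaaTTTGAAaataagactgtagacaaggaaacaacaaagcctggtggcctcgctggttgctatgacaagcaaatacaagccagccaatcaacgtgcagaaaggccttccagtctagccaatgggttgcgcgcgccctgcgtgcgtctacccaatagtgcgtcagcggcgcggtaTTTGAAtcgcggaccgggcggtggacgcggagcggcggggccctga
Of 27 mitosis genes in the promoter table, 20 (74.1%) hold these letters, against 3 of 24 DNA replication genes (12.5%) and 20.2% of all genes. The letters TTTCCCGC, a form of the E2F site, are in 5 of the 24 DNA replication promoters (20.8%) and in 1.2% of all genes. Motifs were also searched in lists with no promoter shown. The CLEAR element of lysosomal genes was searched only as its full palindrome, with every letter matched. That full form was in none of 22 lysosome genes and 0.4% of all genes. Its shorter core was not searched in the lysosome genes, so the share that holds the core is not given. TGACGTCA, the cyclic AMP response element, was in 2 of 18 immediate early genes (11.1%) and 2.0% of all genes.

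MHC class II genes were low in Ly6Clow cells at day 2 and high in both groups of day 4. Between the ends, 5 of 8 measured members were higher (median 1.19), while all 8 were lower in the subset step (median -2.29) and all 8 higher in the day step (median 3.58). Ciita, the transactivator of these genes, had 1091 normalised counts in Ly6Clow cells at day 4, 13.6 in Ly6Clow cells at day 2, 1826 in Ly6Chigh cells at day 4 and 287 in Ly6Chigh cells at day 2. H2-Eb1, a chain of the antigen-presenting molecule, had 17537, 1298, 55585 and 6156 in the same order, and H2-Aa had 23426, 1542, 67775 and 9204. At day 4 the Ly6Chigh group stood above the Ly6Clow group for all 3.

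The promoter of H2-Eb1 (RefSeq, GRCm38.p6, chr17:34305617-34305916, plus strand) is shown for its CCAAT letters, the core of the Y box of class II promoters, in capitals in either orientation.
H2-Eb1: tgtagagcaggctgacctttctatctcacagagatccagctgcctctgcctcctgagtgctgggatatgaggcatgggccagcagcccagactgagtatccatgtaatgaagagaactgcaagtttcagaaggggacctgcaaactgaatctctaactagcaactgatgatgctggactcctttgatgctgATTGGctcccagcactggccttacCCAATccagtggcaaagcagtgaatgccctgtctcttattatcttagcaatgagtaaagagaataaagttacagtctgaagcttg
All 8 class II genes in the promoter table hold CCAAT or ATTGG, as do 41.1% of all genes, 22 of 27 mitosis genes (81.5%) and 16 of 17 cholesterol synthesis genes (94.1%), so these letters are shared by lists that took different courses.

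Interferon-stimulated genes, which the antiviral interferons induce, followed a similar course. Of 30 members, 9 were higher and none lower between the ends (median 0.42), 22 of 28 were lower in the subset step and 28 of 30 higher in the day step. In 17 members the whole difference stayed within 2-fold while both steps passed it, which is 17 of the 174 genes described above. Ifi44 had 343 normalised counts in Ly6Clow cells at day 4, 4.70 in Ly6Clow cells at day 2, 355 in Ly6Chigh cells at day 4 and 15.7 in Ly6Chigh cells at day 2. Ifit2, a protein that restrains viral translation, had 2826, 243, 2998 and 596 in the same order, and Gbp2, a guanylate-binding protein, had 1493, 125, 1699 and 331. Iigp1 was 13.7-fold higher between the ends. For each of these 4 genes, the Ly6Clow and Ly6Chigh groups of day 4 lay within 2-fold of each other.

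The promoters of Gbp2 and Gbp3 are shown because they hold the core of the interferon-stimulated response element, which reads GAAA, 2 free bases and GAAA, and appears in capitals here as its reverse complement. Their windows in RefSeq (GRCm38.p6) are chr3:142620413-142620712 for Gbp2 and chr3:142559794-142560093 for Gbp3, both on the plus strand. In Gbp3 a pair of overlapping matches forms 1 run.
Gbp2: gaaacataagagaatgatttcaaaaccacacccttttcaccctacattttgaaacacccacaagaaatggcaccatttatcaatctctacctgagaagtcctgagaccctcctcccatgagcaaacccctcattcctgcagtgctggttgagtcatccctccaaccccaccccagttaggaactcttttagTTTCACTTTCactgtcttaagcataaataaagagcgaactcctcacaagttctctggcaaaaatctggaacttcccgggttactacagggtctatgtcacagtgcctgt
Gbp3: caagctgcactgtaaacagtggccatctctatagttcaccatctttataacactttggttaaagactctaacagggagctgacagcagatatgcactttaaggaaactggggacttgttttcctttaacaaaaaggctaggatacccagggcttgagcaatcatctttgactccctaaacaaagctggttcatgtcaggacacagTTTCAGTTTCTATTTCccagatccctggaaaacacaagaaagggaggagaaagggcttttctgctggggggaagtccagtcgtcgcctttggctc
Of 22 interferon-stimulated genes in the promoter table, 14 (63.6%) hold the element, against 4.0% of all genes.

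MHC class I genes and their antigen processing partners were higher in 7 of 19 members and lower in 1. H2-K1, a classical class I heavy chain, had 28917 normalised counts in Ly6Clow cells at day 4, 8629.7 in Ly6Clow cells at day 2, 33988 in Ly6Chigh cells at day 4 and 9979 in Ly6Chigh cells at day 2. H2-Q7 (3.56-fold) and H2-Q4 (3.00-fold) were higher as well, with the reservation that class I genes are close paralogs whose reads may be split uncertainly. The lower member was Calr, the chaperone calreticulin, at 9002 in Ly6Clow cells at day 4 and 25407 in Ly6Chigh cells at day 2.

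**Figure D4:**
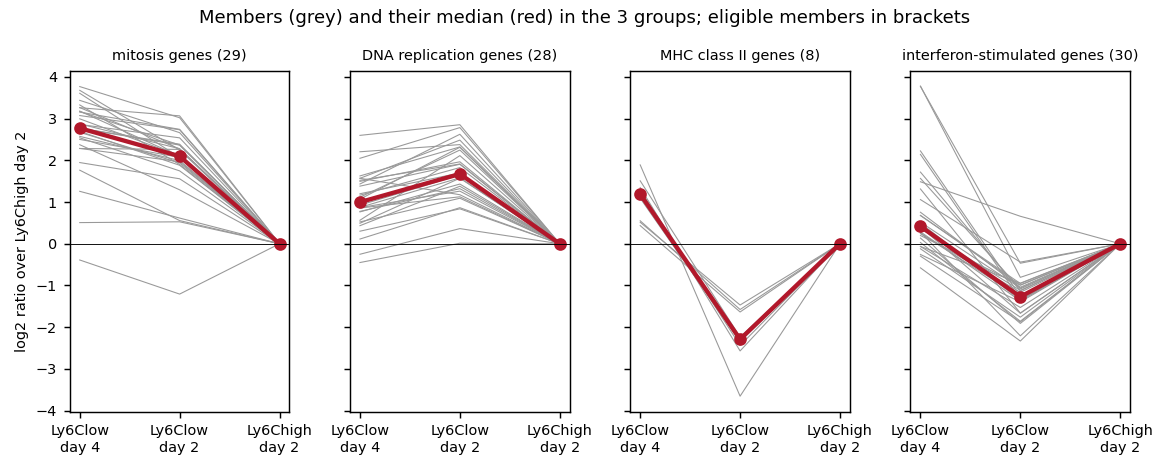
Log2 ratio of each member (grey) and of the list's median (red) over Ly6Chigh day 2, in Ly6Clow day 4, Ly6Clow day 2 and Ly6Chigh day 2 cells, for members with 50 or more normalised counts at an end. Mitosis genes stand highest at Ly6Clow day 4 and DNA replication genes at Ly6Clow day 2, where MHC class II and interferon-stimulated genes stand lowest.

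Genes of the provisional matrix, the temporary scaffold of fibrin and fibronectin in a wound, were lower in 9 of 16 members and higher in 2 (median -1.57, but -0.03 with no floor on the level and likewise -0.03 without genes of other lists). Vcan, F10, Fn1, Thbs1 and Tgfbi, described above, were among the lower members. The higher members were Hmmr, a hyaluronan receptor that is also a mitosis gene, at 104 normalised counts in Ly6Clow cells at day 4 and 1.82 in Ly6Chigh cells at day 2, and Sparc. Sparc, a collagen-binding protein that fibroblasts make in quantity, had 459.7 in Ly6Clow cells at day 4, 38.1 in Ly6Clow cells at day 2, 2467 in Ly6Chigh cells at day 4 and 98.1 in Ly6Chigh cells at day 2.

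Matrix proteases and their inhibitors were divided, with 5 of 17 members higher and 5 lower. Mmp12, macrophage elastase, was 8.12-fold higher, at 1293 normalised counts in Ly6Clow cells at day 4 and 150.4 in Ly6Chigh cells at day 2, and Mmp13, a collagenase, was 5.73-fold higher. Timp1, an inhibitor of these enzymes, was 8.99-fold lower, at 57.6 in Ly6Clow cells at day 4 and 598 in Ly6Chigh cells at day 2. Mmp2, a gelatinase that fibroblasts also make, had 169 in Ly6Clow cells at day 4, 12.5 in Ly6Clow cells at day 2, 399 in Ly6Chigh cells at day 4 and 14.7 in Ly6Chigh cells at day 2.

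Genes of arginine metabolism and alternative activation did not share a direction, with 5 of 19 higher and 6 lower. Retnla, a marker of the response to interleukin-4, had 174 normalised counts in Ly6Clow cells at day 4 and 4.83 in Ly6Chigh cells at day 2. Chi3l3 had 422 in Ly6Clow cells at day 4, 2107 in Ly6Clow cells at day 2, 1762 in Ly6Chigh cells at day 4 and 6526 in Ly6Chigh cells at day 2, and its near-identical neighbour Chi3l4 stood in the same order. Arg1 and Chi3l3, both used as markers of alternative activation in mice, were thus lower and Retnla higher in the late cells.

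Over all measured genes 12.6% were higher and 6.66% lower, and the counts in this paragraph are to be read beside these shares. Of 33 macrophage transcription factors, 6 were higher and 4 lower (median -0.02). The lower ones were Hif1a, Nfil3, Cebpb, which drives inflammatory and alternative genes, at 4319.8 normalised counts in Ly6Clow cells at day 4 and 12704 in Ly6Chigh cells at day 2, and the nuclear receptor Nr4a2 at 995 and 4019. Immediate early genes were lower in 5 of 23 members and higher in 1, Klf2. Fosl1, an AP-1 subunit, was 7.55-fold, Ier3 3.53-fold and Dusp5 3.25-fold lower. Of 24 NF-kB subunits and feedback genes, 4 were higher and 6 lower, among them Irf1 (2.45-fold higher), Traf1 (2.70-fold lower), Nfkbie (2.64-fold lower) and the costimulatory ligand Cd80 (2.42-fold lower). NRF2 antioxidant genes were higher in 2 of 21 members and lower in 4, with Gpx3 5.74-fold higher and Gsr, glutathione reductase, 4.34-fold lower.

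**Figure D5:**
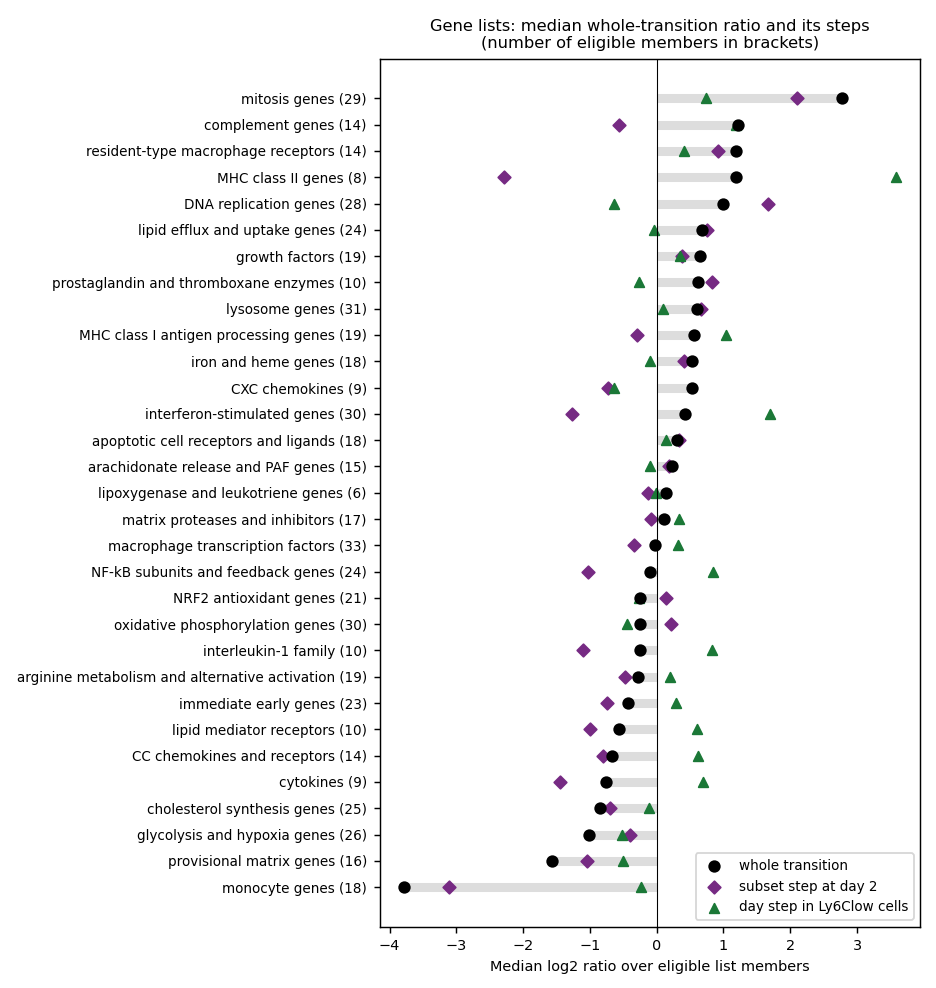
Median log2 ratio over the measured members of each of the 31 gene lists, with the whole transition as a black dot on a grey bar, the subset step at day 2 as a purple diamond and the day step in Ly6Clow cells as a green triangle. In 20 of the 31 lists the 2 step medians have opposite signs, and MHC class II genes show the widest pair, at -2.29 and 3.58. The steps add up for each gene but their medians need not. CXC chemokines have a whole median of 0.53 and step medians of -0.73 and -0.63.

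Both routes from the early to the late cells can be read from the table, since the Ly6Chigh group of day 4 gives the day step first. Over all genes, 13.4% passed 2-fold between Ly6Chigh cells of day 4 and day 2 (9.67% higher and 3.74% lower), and 7.21% did so between Ly6Clow and Ly6Chigh cells at day 4 (2.98% higher and 4.22% lower). Among the 1460 higher genes, 810 (55.5%) were at least 2-fold higher already in Ly6Chigh cells at day 4 than at day 2, and 276 (18.9%) were at least 2-fold higher in Ly6Clow than in Ly6Chigh cells at day 4. By the other route, 549 (37.6%) passed 2-fold in the subset step at day 2 and 592 (40.5%) in the day step of Ly6Clow cells. Among the 774 lower genes, 305 (39.4%) passed 2-fold in the Ly6Chigh day step and 171 (22.1%) in the subset step at day 4. These comparisons share groups with each other, so the counts are not independent of one another.

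Markers of cells outside the gates were read in the same groups. Of 13 fibroblast markers 7 reached 50 normalised counts at an end, 4 of them in Ly6Clow cells at day 4 alone, and the summed level of all 13 was 2347 normalised counts in Ly6Clow cells at day 4, 112.5 in Ly6Clow cells at day 2, 29555 in Ly6Chigh cells at day 4 and 327.1 in Ly6Chigh cells at day 2. Of 16 muscle markers 7 reached it, 6 of them in Ly6Clow cells at day 4 alone, with sums over all 16 of 1582, 311.6, 895.5 and 255.8 in the same 4 groups. The muscle genes Myog and Actc1 had 56.1 and 155 in Ly6Clow cells at day 4 and were listed at 0 in Ly6Chigh cells at day 2. The summed fibroblast and muscle transcripts were higher in the day step. Postn and Des are themselves members of these lists. Sparc, Mmp2 and H19, which are not, were also higher in the day step. At day 4, H19 had 1450.1 in Ly6Clow and 1388 in Ly6Chigh cells, where the fibroblast sum was 2347 and 29555. The part of fibroblast and muscle transcripts in these results was not tested.

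Among lymphocyte markers few were present at the 2 ends. Of the 19 T and NK cell markers, Cd4 alone reached 50 normalised counts at either end, while Cd3e, Cd3g and Cd8a were listed at 0 in Ly6Clow cells at day 4, and Cd4 gave 1223 of the list's sum of 1297 there. The sum was 93.3 in Ly6Chigh cells at day 2 and 41.1 in Ly6Clow cells at day 2. It was 2709.9 in Ly6Chigh cells at day 4, where Cd4 gave 917 and none of the 19 markers was listed at 0. The part of T and NK cells in the values of that group was not tested. Among B cell markers, Cd79b, Ighm and Cd22 were higher, at 165, 2198 and 1613 in Ly6Clow cells at day 4 and 40.4, 934 and 128 in Ly6Chigh cells at day 2, while Pax5 was listed at 0 at both ends. Of 3 measured dendritic cell markers 2 were higher, and all 14 summed to 7378 in Ly6Clow cells at day 4 and 3241 in Ly6Chigh cells at day 2, of which Bst2, also an interferon-stimulated gene, gave 5903 and 2100.0. Flt3, a defining marker of dendritic cells, was at 24.8 in Ly6Clow cells at day 4, 7.46 in Ly6Clow cells at day 2, 394 in Ly6Chigh cells at day 4 and 39.9 in Ly6Chigh cells at day 2, and the part of these cells in the class II result was not tested. Endothelial markers summed to 1228 in Ly6Clow cells at day 4 and 886.2 in Ly6Chigh cells at day 2, with 1 of 6 measured markers higher and 1 lower, and no eosinophil, mast cell, erythroid or platelet marker reached 50 normalised counts at either end. Of 6 measured neutrophil markers, 4 were lower and none higher, with a median of -1.66 for the whole difference and -1.48 for the day step. S100a8 had 21.1 normalised counts in Ly6Clow cells at day 4, 135 in Ly6Clow cells at day 2, 24.5 in Ly6Chigh cells at day 4 and 89.0 in Ly6Chigh cells at day 2, against 101337 in sorted neutrophils. The 17 neutrophil markers summed to 2836 in Ly6Clow cells at day 4 and 2891 in Ly6Chigh cells at day 2, of which Csf3r, also a monocyte gene, gave 2367 and 1373, against a sum of 559648 in sorted neutrophils. The macrophage identity markers summed to 344450 in Ly6Clow cells at day 4 and 260775 in Ly6Chigh cells at day 2.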

How the data were processed

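RNA was sequenced from poly-A libraries made with a kit that does not mark strand, per the labels' protocols. The submitters' processing notes name TopHat2 2.0.7, DESeq and mm10. The annotation behind the counts was not given in the sources used here. Deposited values are the authors' log2 normalised counts, 1 mean per gene and group, per the file headers, with a value of 0 read as a count of 0. Each value was returned to the linear scale, 10 was added, and log2 ratios of groups were taken. Genes under 50 normalised counts in the higher group were left out, and a ratio of 2-fold or more was called. No test was possible on group means, so no p-value or SD is given. In the low values of the table, 1 read was worth 0.736 and 0.904 normalised counts in the Ly6Clow day 4 libraries, 0.835 and 0.85 in those of Ly6Clow day 2 whose steps could be read, and 1.014 and 1.174 in those of Ly6Chigh day 2. The floor of 50 thus stands for 42.6 to 67.9 reads, and counting error alone is wide near it. The steps of 1 library of each day 2 group were not resolved.

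The genes named with values are the 4 sort antigens, the 12 largest differences in each direction, up to 8 genes per step class, up to 4 called members of each list, and any member of the growth factor, CXC chemokine and lipid mediator lists. Msr1, Sparc, Nfil3, Bst2, Flt3, Csf3r and the B cell and muscle markers stand outside this rule and were named after their values were seen. The members, lists and motifs were chosen with earlier results of these data known. Of 38087 gene IDs, 36308 (95.3%) matched the GENCODE M21 annotation of GRCm38, from which positions and overlaps were taken. Overlapping genes on opposite strands cannot be told apart without strand, which also touches Adcy3, Ankrd37, Ciita, Cebpb, Cxcl16, Fosl1, Ltc4s, Pdgfa and Timp1. Glb1 overlaps Tmppe, and Serpinb10 overlaps Serpinb2, on the same strand. Promoters came from RefSeq (GRCm38.p6). The Gpr34 value of Ly6Clow day 4 and the Zcchc11 value of Ly6Chigh day 4 had become dates and were treated as missing. The Ly6Chigh day 1 and blood monocyte groups and the cultured macrophage table were not used here. Python 3.11.15, numpy 2.4.6, pandas 2.3.3 and matplotlib 3.10.9 were used, and the scripts were checked on simulated data. Alternatives tried were other pseudocounts, floors, scalings, fold limits and class limits, the path through Ly6Chigh day 4, and lists without shared genes. Some members of the lists are not reported by name here.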

Additional observations from a re-analysis of the deposited data

How the results depend on the processing

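The deposited group means hold no spread, so every count and median here is a description. No paired analysis was possible because the table has 1 mean per group and no replicate columns, and leaving out a replicate was not possible either. The 2 ends have 2 and 3 samples, and the table does not show whether 1 of them decides a value. The 192 checks of single genes covered only those with the largest differences in each direction, the smallest being Clec4e at a log2 ratio of -4. Of these checks, 191 kept direction and call, the exception being Serpinb10, which fell under a floor of 200 (log2 ratio -4.30). Differences of this size could hardly lose their call under the settings tried, and a floor leaves a ratio unchanged. The count of 191 thus says little of how steady smaller differences are. Rescaling to equal totals gave 1405 higher and 826 lower genes, and rescaling to a median of 0 gave 1512 and 725.

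Among counts, a 4-fold limit left 412 higher and 128 lower genes, and a floor of 200 left 814 higher genes. With a pseudocount of 50, 136 higher genes lay in the subset step and 68 more in the subset step with the day step back, 89 lower genes lay in the day step and 35 in the day step with the subset step opposed, and 110 genes were at least 2-fold lower in Ly6Clow cells at day 2 than at both ends while the ends stayed within 2-fold of each other. With a floor of 200, the higher genes numbered 126 in the subset step, 59 with the day step back, 359 in both steps, 106 in the day step and 164 with the subset step opposed. With no floor, 349 higher genes lay in the day step, 382 had the subset step opposed, and 2 lists had a median below -0.5, since weakly expressed members then enter. Read through Ly6Chigh cells at day 4, the subset step held 84 higher and 61 lower genes, with 24 and 59 more where the day step went back, the day step held 325 higher genes, and 107 lower genes had the subset step opposed.

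Medians changed sign for CC chemokines (0.076 with a floor of 20, 0.038 with none, 0.17 without shared genes), the interleukin-1 family (0.33 with a floor of 20 or 200 or without shared genes), CXC chemokines (-0.16) and lipoxygenase genes (-0.13) with a floor of 200, and transcription factors (0.010) when rescaled to a median of 0. In another 20 checks of list medians the value moved by 0.25 or more without changing sign. Among them, mitosis genes had 3.48 with a pseudocount of 1 and 1.64 with one of 50, and with a pseudocount of 50 monocyte genes had -3.19 and DNA replication genes 0.69. Growth factors had 0.99 with a floor of 20 or without shared genes and 1.34 with a floor of 200. Complement genes had 1.63 with a floor of 20, 0.79 with none and 1.65 without shared genes. Provisional matrix genes had -0.71 with a floor of 20 and -0.03 with none or without shared genes. With no floor, lipid mediator receptors had 0, cholesterol synthesis genes -0.47, cytokines -0.14 and CXC chemokines 0.14. Without shared genes, resident receptors had 2.52 and lipid efflux genes 0.40, and with a floor of 200 CC chemokines had -1.19. The alternatives with other class limits kept each step class within 1.5 times its count.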
